A study of Bos taurus with 6 samples.

Results

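The genes described here are STRADB, the other genes of the LKB1 kinase complex and subunit genes of AMP-activated protein kinase (AMPK), in bovine fat cell precursors transfected with bta-miR-484. They are 10 of the 23475 genes in the deposited table and were found by their symbols. STRADB was chosen by its higher level with the agomir in these same libraries, so its difference between the groups is a description and carries no test. The other 9 genes, STRADA, STK11, CAB39, CAB39L, PRKAA1, PRKAA2, PRKAB1, PRKAB2 and PRKAG1, were added as members of the same pathway.

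LKB1, the product of STK11, is a kinase that switches on AMPK and a family of related kinases. It is active in a complex with a STRAD pseudokinase, encoded by STRADA or STRADB, and a MO25 scaffold protein, encoded by CAB39 or CAB39L. AMPK is an energy sensor built from an alpha, a beta and a gamma subunit, and in fat cells it is known for restraining fatty acid synthesis through phosphorylation of acetyl-CoA carboxylase. Much of this control acts on proteins, which mRNA levels do not show.

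The cells were preadipocytes from subcutaneous fat of calves, kept in medium with serum and collected 48 h after transfection. The agomir group (3 libraries) received bta-miR-484 agomir, a modified RNA duplex that acts as extra copies of the miRNA. The agomir NC group (3 libraries) received a negative control agomir. It is not stated whether the libraries of a group came from separate calves or cultures, so p-values measure the spread between these samples, which may be technical. The values are FPKM, fragments scaled by transcript length and by the mapped fragments of the library, so that levels can be compared between genes. They summed to between 365977 and 379361 FPKM per library, with 16207 to 16360 genes above 0, and sequencing depth is unknown.

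The labels call the cells adipocytes, and their markers were mostly those of fibroblast-like precursors. COL3A1, a fibrillar collagen gene, was the highest of the 10 precursor markers, at 7428 to 7666 FPKM in the agomir group and 7491 to 7916 FPKM in the agomir NC group. DLK1 was listed at 0 and CD34 was at 0.383 to 0.783 FPKM over the 6 libraries. The 8 markers of mature adipocytes summed to 11.0 to 12.6 FPKM per library, mostly LPL, PPARG and FABP4, with LEP at most 0.0368 FPKM and ADIPOQ at most 0.197 FPKM. At an unadjusted p under 0.05 in limma, DCN, a matrix proteoglycan gene, was lower with the agomir among 8 precursor markers tested (log2 fold change -0.12). FABP4, the fatty acid carrier of fat cells, was lower (-0.49) and PPARG, the regulator of fat cell formation, was higher (0.23) among 5 adipocyte markers tested. Over all genes tested, 6.63% were higher and 4.31% lower at that threshold, so counts this small do not set the markers apart. With 1 library left out, DCN was no longer under it without agomir replicate 1 or 3, FABP4 without agomir replicate 3 or agomir NC replicate 1, and PPARG without agomir replicate 1 or 3 or agomir NC replicate 3. DCN was over it also with no filter, with quantile normalization and without a variance trend, while THY1 came under it, as a lower gene, without agomir NC replicate 1. Of these 13 markers 0 passed an adjusted p of 0.05 in limma, and their part in the results was not tested.

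Most markers of other cell types were low in both groups. The highest were CD14, at 5.85 to 6.45 FPKM over the 6 libraries, and VWF, at 2.99 to 3.67 FPKM. The endothelial list summed to 3.77 to 4.54 FPKM per library, mostly VWF, with PECAM1 at most 0.147 FPKM and CDH5 at most 0.182 FPKM. The white blood cell list summed to 6.93 to 8.05 FPKM, mostly CD14, with PTPRC at most 0.119 FPKM. The skeletal muscle list summed to 0.1997 to 0.479 FPKM, mostly DES, with MYOD1 and MYOG listed at 0. PAX7 was not found by its symbol. For the epithelial list the sum was 0.145 to 0.379 FPKM, with EPCAM the highest by its mean over the 6 libraries, though listed at 0 in agomir replicate 1, and KRT18 listed at 0 throughout.

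STRADB encodes a pseudokinase that holds LKB1 in its active form. Its level was 10.3, 11.0 and 10.6 FPKM in the agomir group and 6.19, 6.45 and 8.32 FPKM in the agomir NC group. Every agomir library lay above every agomir NC library, as in 10.9% of all genes tested. The wider spread was within the agomir NC group, where replicate 3 stood highest. Mean levels came to 10.6 ± 0.323 and 6.99 ± 1.16 FPKM (SD, n = 3 each), which gives a ratio of 1.52. On the log2(FPKM + 0.5) scale, used for all fold changes here and understating those of low genes, the difference was 0.58 with a standard error of 0.10. Of the 12422 genes tested, 24 had a higher log2 fold change.

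STRADA, the paralog that can take the place of STRADB in the complex, differed between the groups by less than the SD within either group. Its level was 13.9, 12.6 and 13.1 FPKM in the agomir group and 13.6, 12.8 and 14.1 FPKM in the agomir NC group, and the groups overlapped. The log2 fold change was -0.029 with a 95% interval from -0.17 to 0.12 (adjusted p = 0.910 in limma). It turned to 0.0037 without agomir replicate 2 and to 0.0029 without agomir NC replicate 3. The other way, it was -0.067 without agomir replicate 1, -0.066 without agomir NC replicate 2 and -0.055 with quantile normalization. STRADB made up 42.6, 46.6 and 44.7% of the summed STRAD FPKM in the agomir libraries, against 31.3, 33.6 and 37.1% in the agomir NC libraries. The log2 ratio of STRADB to STRADA averaged -0.31 ± 0.12 and -0.96 ± 0.19 (SD, n = 3 each), a gap of 0.65 that follows from the choice of STRADB and was not tested.

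STRADB was among the genes that the study measured again by real-time PCR. Its primers are shown because they define which stretch of the STRADB mRNA was amplified. Both are written 5′ to 3′, with no base marked.
STRADB forward: gcaggtttcctttccaagac
STRADB reverse: tattacggtgcgagttcc

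**Figure D1:**
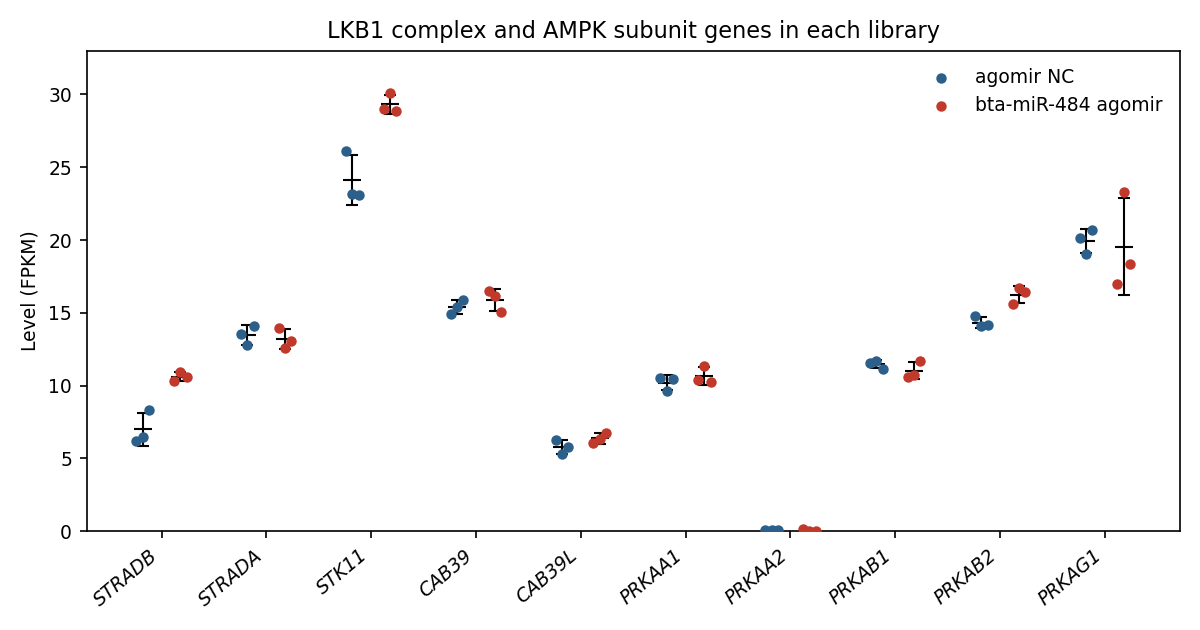
Level of each gene in FPKM (vertical axis, linear) in the 3 agomir NC libraries (blue) and the 3 agomir libraries (red), with the mean and SD in black. In STRADB, STK11 and PRKAB2 all agomir libraries lie above the agomir NC libraries, and PRKAA2 lies near 0 in all 6.

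STK11, the gene of the LKB1 kinase itself, had the highest level of the 10 genes in both groups and was higher with the agomir. It measured 29.0, 30.1 and 28.9 FPKM in the agomir group and 26.1, 23.2 and 23.1 FPKM in the agomir NC group. The groups did not overlap, and agomir NC replicate 1 came nearest to the agomir libraries. On average these came to 29.3 ± 0.671 and 24.1 ± 1.73 FPKM (SD, n = 3 each), which gives a ratio of 1.21 and a log2 fold change of 0.28 (standard error 0.059, 95% interval 0.14 to 0.41). Limma put its unadjusted p at 0.000979 and its adjusted p at 0.218, so STK11 did not pass the adjusted threshold of 0.05. Over the 15 alternatives limma's adjusted p lay between 0.153 and 0.498. By exact permutation, two-sided, p was 0.1, and 3 libraries against 3 cannot go lower.

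The levels of both MO25 scaffold genes overlapped between the groups. CAB39 measured 16.5, 16.2 and 15.1 FPKM in the agomir group and 14.9, 15.4 and 15.9 FPKM in the agomir NC group, a log2 fold change of 0.043 (95% interval -0.088 to 0.17, adjusted p = 0.829 in limma). It ranged from 0.018 without agomir replicate 1 to 0.081 without agomir replicate 3, and was 0.021 with quantile normalization. CAB39L measured 6.04, 6.34 and 6.77 FPKM against 6.27, 5.28 and 5.77 FPKM, a log2 fold change of 0.14 (95% interval -0.054 to 0.33, adjusted p = 0.603 in limma), and 0.079 without agomir NC replicate 2. CAB39 held 69.0 to 74.5% of the summed MO25 FPKM over the 6 libraries. The log2 ratio of CAB39 to CAB39L was 1.32 ± 0.15 against 1.42 ± 0.15 (SD, n = 3 each; exact permutation, two-sided, p = 0.4, and 0.5 adjusted over 3 ratios). The difference of -0.10 ranged from -0.19 without agomir NC replicate 1 to -0.022 without agomir replicate 3.

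The catalytic alpha subunit of AMPK came almost wholly from PRKAA1 at the mRNA level. PRKAA1 measured 10.4, 11.4 and 10.2 FPKM in the agomir group and 10.6, 9.61 and 10.4 FPKM in the agomir NC group. These overlapped, with a log2 fold change of 0.060 (95% interval -0.095 to 0.21, adjusted p = 0.798 in limma). It was 0.015 without agomir replicate 2, 0.020 without agomir NC replicate 2 and 0.036 with quantile normalization. PRKAA2, the alpha subunit known from skeletal muscle and heart, measured 0.123, 0.0118 and 0.0328 FPKM against 0.0712, 0.0511 and 0.0980 FPKM. It was the 1 gene of the 10 under the mean of 0.5 FPKM required for testing, and its share of the summed alpha FPKM was at most 1.17%. The log2 ratio of PRKAA1 to PRKAA2 was 8.20 ± 1.76 against 7.17 ± 0.413 (SD, n = 3 each; exact permutation, two-sided, p = 0.5, and 0.5 adjusted over 3 ratios). Its spread in the agomir group goes with PRKAA2 values near 0. The difference of 1.03 was 0.17 without agomir replicate 2, 1.93 without agomir replicate 1 and 0.11 with a pseudocount of 0.5.

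Of the beta subunit genes, whose products hold the AMPK complex together, PRKAB2 was higher with the agomir. PRKAB2 measured 15.6, 16.7 and 16.4 FPKM in the agomir group and 14.8, 14.1 and 14.1 FPKM in the agomir NC group, without overlap. Mean levels came to 16.2 ± 0.560 and 14.3 ± 0.376 FPKM (SD, n = 3 each), with a log2 fold change of 0.18 (standard error 0.056, 95% interval 0.050 to 0.30). Limma put its unadjusted p at 0.0112 and its adjusted p at 0.344 (0.309 to 0.597 over the alternatives), so it did not pass the adjusted threshold either. PRKAB1 measured 10.6, 10.7 and 11.7 FPKM against 11.6, 11.7 and 11.2 FPKM. Its groups overlapped, and its log2 fold change was -0.059 (95% interval -0.20 to 0.083, adjusted p = 0.775 in limma), with -0.034 without agomir replicate 1 and -0.10 without agomir replicate 3.

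A ratio within each library cancels a shift of the whole library. By this measure the beta genes parted the groups, as PRKAB2, a part of the ratio, did by itself. PRKAB2 made up 59.6, 60.9 and 58.4% of the summed beta FPKM in the agomir libraries and 56.1, 54.6 and 55.9% in the agomir NC libraries. The log2 ratio of PRKAB1 to PRKAB2 was -0.56 ± 0.072 against -0.32 ± 0.045 (SD, n = 3 each), a difference of -0.24, and was lower in 3 of 3 agomir libraries than in any agomir NC library. By exact permutation, two-sided, p was 0.1, the lowest possible here, and 0.3 adjusted over the 3 ratios tested. With 3 libraries in each group this test could not reach 0.05 for any of the ratios, so it does not decide whether they differed.

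The gamma subunit, which binds AMP and ADP, came from PRKAG1 and PRKAG2. PRKAG1 measured 17.0, 23.3 and 18.4 FPKM in the agomir group and 20.1, 19.0 and 20.7 FPKM in the agomir NC group, so agomir libraries lay on both sides of the agomir NC libraries. The log2 fold change was -0.040 (95% interval -0.27 to 0.19, adjusted p = 0.922 in limma), but -0.17 without agomir replicate 2 (unadjusted p = 0.0340, adjusted p = 0.587 in limma) and 0.052 without agomir replicate 1. PRKAG2, from the list of other AMPK subunits, measured 6.55, 9.29 and 7.90 FPKM against 8.57, 8.26 and 8.77 FPKM. Agomir replicate 2 was thus the highest library and agomir replicate 1 the lowest for both gamma genes. For PRKAG2 the log2 fold change was -0.12 (adjusted p = 0.745 in limma), but -0.23 without agomir replicate 2 (unadjusted p = 0.0368 in limma) and 0.0058 without agomir replicate 1. PRKAG1 held 69.7 to 72.2% of the summed gamma FPKM over the 6 libraries, and PRKAG3, known from skeletal muscle, was listed at 0.

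**Figure D2:**
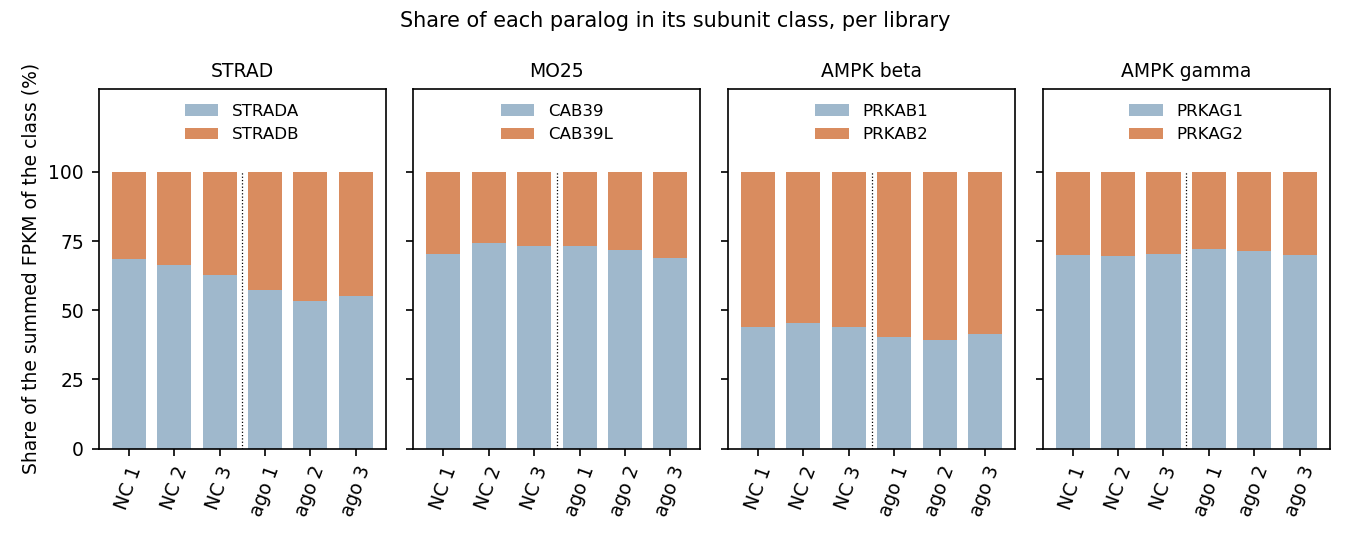
Share of each paralog in the summed FPKM of its subunit class (vertical axis, percent) in each agomir NC (NC) and agomir (ago) library, with a dotted line between the groups. The STRADB share is 31.3 to 37.1% in the agomir NC and 42.6 to 46.6% in the agomir libraries, and the PRKAB2 share 54.6 to 56.1% and 58.4 to 60.9%.

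Of the 8 genes other than STRADB that were tested, 2 (STK11 and PRKAB2) were higher with the agomir at an unadjusted p under 0.05 in limma and 0 were lower. Over all 12422 genes tested, 6.63% were higher and 4.31% lower at that threshold. At an adjusted p under 0.05 in limma, 0 of the 8 passed, against 1 (0.00805%) of the 12422 genes tested. The agomir libraries all lay above the agomir NC libraries in the same 2 of the 8 genes and below them in 0, against 10.9% and 6.36% of all genes tested. When agomir replicate 2 was left out, PRKAG1 joined these genes at the unadjusted threshold as a lower one (unadjusted p = 0.0340 in limma). With 8 genes, a single gene weighs more than these background shares. The median log2 fold change of the 8 was 0.052, beside 0.013 over all genes tested.

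In mean level, the agomir NC group ran in order from STK11 (24.1 FPKM) through PRKAG1 (19.9 FPKM), CAB39 (15.4 FPKM), PRKAB2 (14.3 FPKM), STRADA (13.5 FPKM), PRKAB1 (11.5 FPKM), PRKAA1 (10.2 FPKM), STRADB (6.99 FPKM) and CAB39L (5.77 FPKM) to PRKAA2 (0.0734 FPKM). Adjacent genes overlapped in range between PRKAB2 and STRADA and between STRADB and CAB39L. In the agomir group STRADB, at a mean of 10.6 FPKM, overlapped in range with PRKAA1, at 10.7 FPKM, and no longer with CAB39L, at 6.39 FPKM. PRKAB2 and CAB39 overlapped there too, as did PRKAB1 and PRKAA1. Across the 6 libraries the median gene tested had a mean of 8.36 FPKM, and CAB39L and PRKAA2 were the members below it.

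TRAK2, an adaptor gene for transport of mitochondria, is next to STRADB in the RefSeq table of the assembly ARS-UCD2.0. It measured 7.27, 7.19 and 7.05 FPKM in the agomir group and 6.16, 6.22 and 5.23 FPKM in the agomir NC group, also without overlap. The log2 fold change of TRAK2 was 0.27 (standard error 0.082), with an adjusted p of 0.325 in limma. In agomir NC replicate 3, STRADB was at its highest in that group and TRAK2 at its lowest. C2CD6, on the other side of STRADB, was at most 0.0270 FPKM. The span of STK11 overlaps that of CBARP, which measured 0.879 to 1.48 FPKM over the 6 libraries with overlapping groups, and whether counting used the strand is not given in the sources used here. KMT2D, a histone methyltransferase gene next to PRKAG1, measured 16.1, 17.1 and 15.04 FPKM against 13.2, 14.0 and 9.84 FPKM, without overlap (log2 fold change 0.38, adjusted p = 0.326 in limma). Of the 14 neighbors of members that were tested, these 2 (TRAK2 and KMT2D) had all agomir libraries above the agomir NC libraries, 0 had them below and 12 overlapped, beside 10.9% above and 6.36% below among all genes tested. Any sharing of fragments between neighbors was not tested.

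The 5 tested genes with a symbol whose pattern was closest to that of STRADB were TRAPPC4, KCTD21, HNMT, RASD1 and ATP1B1. Their root mean square differences from STRADB, over 6 libraries in centred log2 values, were 0.0996, 0.105, 0.127, 0.127 and 0.127. KCTD21 measured 2.19, 2.41 and 2.28 FPKM in the agomir group and 1.47, 1.56 and 1.87 FPKM in the agomir NC group. HNMT, a histamine-degrading enzyme gene, measured 5.02, 5.98 and 5.23 FPKM against 3.66, 3.93 and 4.90 FPKM. In all 5 genes, as in STRADB, agomir NC replicate 3 was the highest of its group. ATP1B1, a sodium pump subunit gene, measured 4.19, 4.04 and 4.12 FPKM against 2.51, 2.43 and 4.12 FPKM, so that agomir NC replicate 3 fell within the agomir range. RASD1 measured 0.931, 1.45 and 1.08 FPKM against 0.571, 0.553 and 0.968 FPKM, also with overlap at agomir NC replicate 3. Among the members, STK11 ranked 371, PRKAB2 728, CAB39L 1664, PRKAA1 2847, CAB39 3103, STRADA 6496, PRKAG1 8090 and PRKAB1 8714 in closeness to STRADB among the 12422 genes tested. The measure includes the group difference for which STRADB was chosen and carries no test.

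Genes around the pathway were described by 7 lists of 60 genes in all, of which 54 were tested. At an unadjusted p under 0.05 in limma 3 were higher and 1 was lower, and 0 passed the adjusted threshold. These shares are near or under the background of all genes. The median log2 fold change of the 54 was 0.028. Of these 4 genes (SIK3, MARK2, GYS1 and TSC1), leaving out agomir replicates 1, 2 and 3 in turn left 2, 0 and 2 under that threshold. Leaving out agomir NC replicates 1, 2 and 3 in turn left 3, 1 and 0. Between 0 and 2 other list genes came under it in these fits, among them PRKAG2 without agomir replicate 2.

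Among the 12 AMPK-related kinases that LKB1 switches on, 9 were tested, 2 were higher at an unadjusted p under 0.05 in limma and 0 were lower, beside 6.63% and 4.31% of all genes tested. With 9 genes these counts are too small to set the list apart. SIK3, a salt-inducible kinase gene, measured 20.9, 21.6 and 20.1 FPKM in the agomir group and 19.5, 18.2 and 18.6 FPKM in the agomir NC group, without overlap (log2 fold change 0.15, adjusted p = 0.391 in limma). Its unadjusted p in limma was 0.0234, but 0.0512 to 0.0817 in 4 of the 6 fits with 1 library left out, those without agomir replicate 1 or 2 or agomir NC replicate 2 or 3. MARK2, whose product phosphorylates microtubule-associated proteins, measured 8.89, 12.0 and 10.3 FPKM against 8.49, 9.04 and 8.25 FPKM. Its agomir replicate 1 fell within the agomir NC range, and its log2 fold change of 0.25 (adjusted p = 0.409 in limma) was 0.15 without agomir replicate 2. Limma's unadjusted p for MARK2 was 0.0319, but 0.0593 to 0.130 in 4 of the 6 fits with 1 library left out, those without agomir replicate 2 or 3 or agomir NC replicate 1 or 3. It was 0.0532 with no filter and 0.0531 without a variance trend. When agomir NC replicate 1 was left out, NUAK2 was lower (unadjusted p = 0.0109 in limma), and when agomir NC replicate 2 was left out, SIK2 was higher (0.0496). NUAK1 had the highest level of the list, 42.7 to 49.0 FPKM over the 6 libraries. MARK4 was listed at 0, and BRSK1 and BRSK2, known from the brain, were at most 0.212 FPKM.

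Upstream of AMPK, 0 of the 10 genes tested passed an unadjusted p of 0.05 in limma, where 6.63% of all genes tested were higher and 4.31% lower. FNIP1, which encodes a partner of folliculin, was close to it (log2 fold change 0.11, unadjusted p = 0.0507 in limma) and passed it with no filter (0.0197). Its paralog FNIP2 passed it with the replicate block (unadjusted p = 0.0457 in limma) and without agomir replicate 3 (0.0258). CAMKK2, a calcium-dependent kinase that can activate AMPK in place of LKB1, measured 11.3, 10.9 and 11.2 FPKM in the agomir group and 12.0, 11.1 and 11.0 FPKM in the agomir NC group, with overlap. The lysosomal anchor gene LAMTOR1 had the highest level of this list, 28.4 to 35.0 FPKM. Of the 5 AMPK phosphatase genes 4 were tested and 0 passed, with PPP2R1A the highest at 108 to 118 FPKM. Limma's unadjusted p for PPP2R1A was 0.0787, but 0.0243 with quantile normalization and 0.0264 without agomir NC replicate 3. Of the 5 other kinase genes whose products bind MO25, 0 passed in the reported setting or in any of the 15 alternatives, with STK25 the highest by its mean over the 6 libraries, at 22.3 to 25.6 FPKM.

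Among the AMPK substrates of lipid and glucose metabolism, 10 of 11 were tested, and at an unadjusted p under 0.05 in limma 1 was lower and 0 were higher, beside 4.31% and 6.63% of all genes tested. It was GYS1, a glycogen synthase gene, at 17.3, 17.3 and 17.4 FPKM in the agomir group and 18.3, 20.2 and 19.0 FPKM in the agomir NC group, without overlap (log2 fold change -0.14, adjusted p = 0.418 in limma). Its unadjusted p in limma was 0.0351, but over 0.05 in 7 of the 15 alternatives. These were 5 of the 6 fits with 1 library left out (0.0551 to 0.129, all but the one without agomir NC replicate 1), the fit without a variance trend (0.0533) and the replicate block (0.0588). ACACA, the acetyl-CoA carboxylase of fatty acid synthesis, measured 9.30, 9.71 and 10.1 FPKM against 10.1, 9.99 and 9.03 FPKM, with overlap and a log2 fold change of -0.0017. Its mitochondrial paralog ACACB was at most 0.0136 FPKM. SREBF1, a regulator of lipid synthesis genes, had the highest level of the list, 42.1 to 48.2 FPKM.

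The list of AMPK substrates in growth, autophagy and transcription holds 15 genes, all tested, with TSC1 on it as the partner of the substrate TSC2. In this list 1 was higher at an unadjusted p under 0.05 in limma and 0 were lower, beside 6.63% and 4.31% of all genes tested. It was TSC1 itself, part of a complex that restrains mTORC1, at 13.7, 14.5 and 13.5 FPKM in the agomir group and 13.3, 11.8 and 11.2 FPKM in the agomir NC group, without overlap (log2 fold change 0.19, adjusted p = 0.397 in limma). Its unadjusted p in limma was 0.0251, but 0.0827 without agomir replicate 2, 0.0644 without agomir NC replicate 2 and 0.0921 without agomir NC replicate 3. The unadjusted p of CRTC2, a transcriptional coactivator gene, was 0.106 but 0.0388 without agomir replicate 2 and 0.0332 without agomir NC replicate 2. TSC2, which AMPK phosphorylates, measured 12.5, 12.6 and 12.9 FPKM against 12.8, 14.1 and 12.8 FPKM, with overlap and a log2 fold change of -0.058. MFF, a mitochondrial fission factor gene, had the highest level of the list, 42.0 to 47.6 FPKM.

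**Figure D3:**
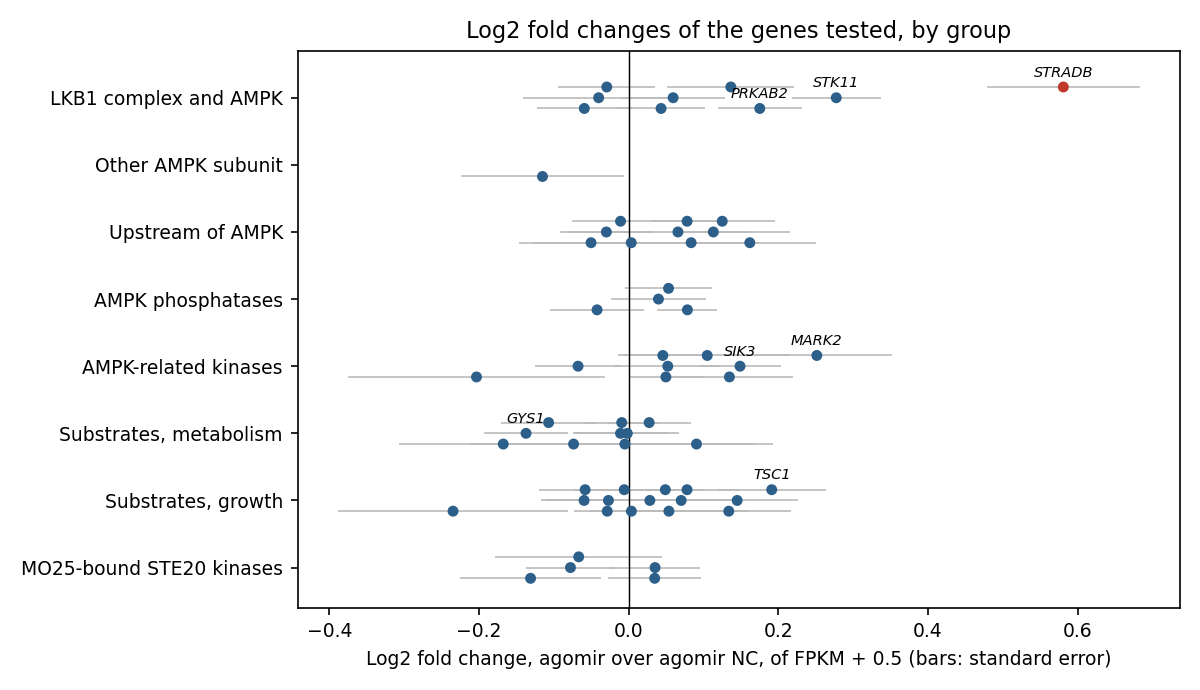
Log2 fold change of agomir over agomir NC on the log2(FPKM + 0.5) scale (horizontal axis) with its standard error (grey bars) for each gene tested, by group (vertical axis). STRADB, chosen by this value, is in red, and of the 6 other named genes 5 lie above 0 and GYS1 below.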

How the data were processed

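RNA of the 6 samples was sequenced on an Illumina platform. The authors deposited 1 FPKM value for each gene in each library. The submitters' processing notes name fastp, HISAT2, StringTie and the build ARS-UCD1.2, without versions. Read counts were not used here, so counting error is unknown.

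A gene entered the fit when its mean over the 6 libraries reached 0.5 FPKM (12422 of 23475). Log2(FPKM + 0.5) values were compared with limma 3.58.1 in R 4.3.3, two-sided, with a variance trend and no replicate term, and p was adjusted over all genes tested (Benjamini-Hochberg). Paralog ratios used FPKM without a pseudocount and exact permutation of the 20 labelings. The fit was tested on simulated data.

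Members and lists were chosen with earlier results of these data known. The rule for naming took all members, the 5 genes most like STRADB, its neighbors, list genes under an unadjusted p of 0.05, the highest gene of each list, and markers that were highest or near 0. Other genes named (DCN, FABP4, PPARG, CBARP, KMT2D, THY1, CAMKK2, FNIP1, FNIP2, ACACA, ACACB, TSC2, CRTC2, MARK4, SIK2, NUAK2, BRSK1, BRSK2 and PRKAG3) were picked after their values were seen, and class shares and the neighbors of other members were added then. All 10 members matched the RefSeq table of ARS-UCD2.0, used for names and neighbors alone since the builds differ. Alternatives were pseudocounts of 0.1 or 1, no filter, a minimum mean of 1 FPKM, scaling by median ratios, quantile normalization, a fit lacking the variance trend, array weights, a replicate block, leaving out each library and, for ratios, a pseudocount of 0.5.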

Additional observations from a re-analysis of the deposited data

How the results depend on the processing

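The log2 fold change of STRADB lay between 0.55 and 0.61 under other settings and between 0.51 and 0.70 with 1 library left out. Since STRADB was chosen on these same libraries, its sign in these fits follows from that choice. Of 120 values of the other tested members under the alternatives, 117 had the reported sign and side of the adjusted threshold, and 0 passed it in limma. The other 3 changed sign near 0. STRADA was at 0.0037 without agomir replicate 2 and 0.0029 without agomir NC replicate 3 (range with 1 library left out -0.067 to 0.0037), and PRKAG1 at 0.052 without agomir replicate 1 (range -0.17 to 0.052). Members under an unadjusted p of 0.05 in limma numbered 2 in all settings but the one without agomir replicate 2, where PRKAG1 was added (3). The log2 fold change of PRKAG2 ranged from -0.23 to 0.0058. The 32 alternative values of the paralog ratios had the reported sign. Of these, 8 are of STRADB to STRADA, whose sign follows from the choice of STRADB and says nothing on stability. The PRKAA1 to PRKAA2 difference of 1.03 was 0.11 with a pseudocount of 0.5.

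By limma's adjusted p, 1 gene passed in the reported setting, 0 with no filter (1604 under an unadjusted p of 0.05), 0 when the variance trend was dropped (1249) and 0 to 2 with 1 library left out. The number of list genes under an unadjusted p of 0.05 in limma, 4 as reported, was 5 with quantile normalization, 2 when the variance trend was dropped and 1 to 4 with 1 library left out, not always of the same genes. Of the reported 4, between 0 and 3 were among them with 1 library left out. Fewer libraries enter when 1 is left out, and beyond that the cause was not tested.

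Replicate numbers occur in both groups, and deviations of same-numbered libraries correlated at -0.051, 0.053 and 0.039. Whether same-numbered libraries share a calf or culture is not stated, and correlations over all genes cannot settle it. With the replicate block 0 genes passed the adjusted threshold in limma (1260 under an unadjusted p of 0.05), and 2 of the other members were under an unadjusted p of 0.05, the number found without it (limma). GYS1 was no longer under it (unadjusted p = 0.0588 in limma). The unknown depth limits values near 0, such as those of PRKAA2.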
